A study of Mus musculus with 6 samples.

Results

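The genes described here are the 6 inhibitors of cyclin-dependent kinases (CDKs) with a row in the count table of sorted ureteric bud cells: Cdkn1a, Cdkn1b and Cdkn1c of the CIP/KIP family, and Cdkn2b, Cdkn2c and Cdkn2d of the INK4 family. They were picked by symbol and family, at a time when earlier results of these data were known, and they are 6 of 17189 genes in the table. The ureteric bud is the branching epithelial tree of the embryonic kidney, from which the collecting ducts arise. At E16.5 these cells were isolated from untreated mouse embryos by fluorescence-activated sorting, and messenger RNA was sequenced from 3 control and 3 conditional knockout (cKO) libraries. Control embryos were Hoxb7Cre-GFP+, Ash2l F/+, and cKO embryos were Hoxb7Cre-GFP+, Ash2l F/F. Both groups therefore carried the Hoxb7-driven Cre-GFP transgene, which marks the sorted cells, and the controls had 1 floxed allele of Ash2l. ASH2L is a shared subunit of the enzyme complexes that methylate lysine 4 of histone H3. The labels number the libraries of a group as biological replicates without saying whether each is 1 embryo or a pool, so the p-values reflect only how these libraries vary, which may be technical.

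CDK inhibitors restrain the cell cycle by binding the kinases that drive it. The CIP/KIP proteins p21 (Cdkn1a), p27 (Cdkn1b) and p57 (Cdkn1c) bind complexes of cyclins D, E and A with their kinases, and the INK4 proteins p15 (Cdkn2b), p18 (Cdkn2c) and p19 (Cdkn2d) bind CDK4 and CDK6 alone. p21 is the best known transcriptional target of p53, p15 is induced by transforming growth factor beta (TGF-beta), p27 is controlled mostly through its degradation, and Cdkn1c is an imprinted gene read from the maternal allele. Protein was not measured here, and RNA levels do not settle its amount.

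Library totals ranged from 9620235 to 10538314 counts. Values per library are given throughout in the order of replicates 1, 2 and 3. Ash2l reads numbered 1933, 1853 and 1624 over the controls, against 451, 292 and 214 over the cKO libraries, which goes with the labels. All 15 ureteric epithelium markers listed for the check had more than 10 counts in every library, and the summed FPKM (fragments scaled by gene length and library size) of that list was 4394 to 4879 in controls and 2695 to 3103 in cKO. Of the 15 markers 14 had a negative change and 5 fell by edgeR, against 3.59% of all genes that fell by edgeR. DESeq2 called 10 of the 15 down, and it called 1061 genes down over the whole table. By edgeR 9 fell when cKO replicate 3 was left out, against 14.9% of all genes. One library stood apart: cKO replicate 3 had a 0 for 1453 genes, or 12.4% of the 11738 that exceeded 10 counts everywhere else, while the same measure gave 3 genes or fewer for the other libraries. Counts of called genes are therefore also given without it, and there 13.7% of all genes tested rose and 14.9% fell. Of the Y-linked genes, Ddx3y, Uty and Kdm5d were detected in the controls alone. Eif2s3y did not follow the groups, with 736, 815 and 439 reads over the controls and 0, 0 and 504 over the cKO libraries. Since cKO replicate 3 had many genes at 0, its 0 for Ddx3y, Uty and Kdm5d does not settle its sex. The part of sex in the results was not tested. In such bulk samples, more RNA per cell and more cells of a type cannot be told apart either.

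Of the 6 inhibitor genes, 3 rose in cKO cells and 3 were not called. Cdkn1c, Cdkn1a and Cdkn2b rose 13.7-fold, 3.94-fold and 5.70-fold by the ratio of mean CPM (counts scaled to a common library size). Cdkn1b, Cdkn2d and Cdkn2c had lower cKO means with adjusted p-values above the threshold of 0.05. The test was edgeR's quasi-likelihood test over all 13047 genes that passed the filter on low counts, and all 6 members passed it. Among all genes tested 7.11% were called, 3.52% up and 3.59% down. The median log2 fold change was 0.90 over the 6 members and -0.04 over all genes tested. In 5 of the 6 members no cKO library overlapped the control range, which held for 37.4% of all genes tested (16.7% with cKO above, 20.7% with cKO below). By edgeR 0 members fell, and 1 had a negative change with an unadjusted p under 0.05. The number that fell was 1 by DESeq2, 0 by limma-voom and 2 by limma-voom with library weights. Over the whole table these settings called 1061, 569 and 1743 genes down.

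**Figure D1:**
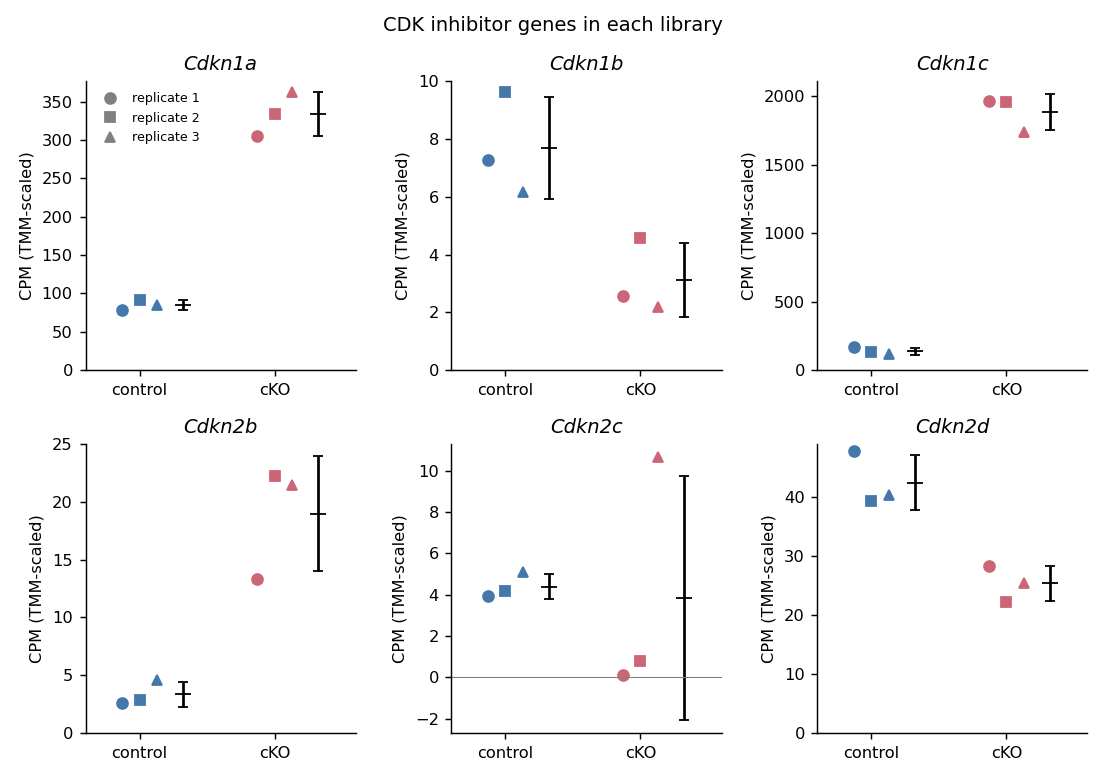
CPM of each CDK inhibitor gene (vertical axes, a separate scale for each gene) in the 3 control and 3 cKO libraries, with a marker shape for each replicate and the mean with its SD beside the points. Cdkn1a, Cdkn1c and Cdkn2b were higher in every cKO library, Cdkn1b and Cdkn2d were lower in every cKO library, and Cdkn2c was low in cKO replicates 1 and 2 and high in cKO replicate 3.

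Cdkn1c (Entrez Gene 12577), which encodes p57, was the inhibitor with the largest change. Its reads numbered 1695, 1377 and 1197 over the controls, against 19236, 19278 and 17405 over the cKO libraries. Every cKO library held more than 10 times the count of any control. It averaged 138 ± 25.5 CPM against 1887 ± 130 CPM (SD, n = 3 each), a log2 fold change of 3.77 (SE 0.158, 95% interval 3.40 to 4.15, edgeR adjusted p = 0.00118). By p-value it ranked 1 of the 13047 genes tested, and by size of the rise 150. Per length of transcript it ranked 1202, 1497 and 1705 among all 17189 genes in the controls and 19, 17 and 26 in the cKO libraries. The call was kept without each library in turn, and the edgeR adjusted p reached at most 0.022, when cKO replicate 2 was dropped.

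Markers of cell types outside the ureteric epithelium are given beside this rise, and podocytes are known for high p57. The podocyte markers Nphs1 (0, 0 and 0 counts in controls, 2, 0 and 0 in cKO) and Wt1 (14, 4 and 5, then 1, 9 and 0) were at or near 0 in every library. All 8 podocyte markers together had 110 to 145 counts in controls and 205 to 445 in cKO, and 6 of the 8 were at 0 in cKO replicate 3. The summed podocyte FPKM was 4.04 times as high in cKO by the ratio of means. Summed counts were also higher in every cKO library for 7 nephron tubule markers (961 to 1351 in controls, 1859 to 2962 in cKO), 6 nephron progenitor markers (110 to 149, then 197 to 232) and 7 endothelial markers (8 to 49, then 61 to 183). Tubule markers at 0 numbered 1, 0 and 1 over the controls and 0, 0 and 4 over the cKO libraries. For progenitor markers the numbers were 1, 1 and 1, then 2, 0 and 3. For endothelial markers they were 5, 1 and 5, then 1, 2 and 6, and cKO replicate 3 had the sum of 183. The rises of these sums were thus not shared by every marker. Summed counts overlapped between the groups for 8 stromal markers (103 to 268, then 22 to 183) and 8 markers of blood and macrophages (425 to 4372, then 563 to 949). The part of such cells in the rise of Cdkn1c and in the other changes was not tested.

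Cdkn1a (Entrez Gene 12575), which encodes p21, was read 798, 964 and 864 times over the controls, against 2989, 3289 and 3633 times over the cKO libraries. The groups were far apart and the libraries of each lay close together. The level went from 84.9 ± 6.70 to 334 ± 28.5 CPM (SD, n = 3 each), a log2 fold change of 1.98 (SE 0.114, 95% interval 1.71 to 2.25, edgeR adjusted p = 0.00311). This was the rank 3 p-value of all genes tested and the rank 512 rise. The call was kept without each library in turn, where the edgeR adjusted p reached at most 0.0317 (control replicate 3 dropped), and in all 15 alternative settings.

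RefSeq gives Cdkn1a an upstream and a downstream start site, and the counts do not separate transcripts from them. The sequences before both starts are shown because p21 is known as a p53 target. They are from RefSeq, build GRCm38.p6, on the plus strand of chromosome 17, while the deposited tables used GRCm39. Capitals mark CATG, any 6 bases and CATG again, the core of a pair of p53 half-sites, in the upstream window, and GGGCGG (a GC box) and TATAA in the downstream window.
Cdkn1a upstream start, chr17:29090729-29090978: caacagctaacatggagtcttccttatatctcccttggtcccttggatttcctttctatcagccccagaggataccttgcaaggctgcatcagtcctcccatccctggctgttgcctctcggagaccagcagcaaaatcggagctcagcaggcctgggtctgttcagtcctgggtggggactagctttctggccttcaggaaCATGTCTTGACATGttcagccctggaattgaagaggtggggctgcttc
Cdkn1a downstream start, chr17:29093519-29093768: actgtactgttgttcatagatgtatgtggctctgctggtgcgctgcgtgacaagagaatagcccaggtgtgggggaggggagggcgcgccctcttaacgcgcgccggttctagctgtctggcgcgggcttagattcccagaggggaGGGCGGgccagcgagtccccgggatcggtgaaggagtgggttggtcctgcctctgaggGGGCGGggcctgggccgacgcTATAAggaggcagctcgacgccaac
The paired core began 48 bases before the upstream start. It was in 0.712% of the 32851 RefSeq promoter windows of 300 bases (250 before and 50 after a start), searched on both strands. The full p53 consensus with no spacer and at most 1 mismatch overlapped it and was in 0.0883% of windows. The GC boxes began 104 and 46 bases, and TATAA 25 bases, before the downstream start, and these motifs were in 35.7% and 24.9% of windows. Neither form of the p53 motif was found in the other 6 windows of the members with an entry. Of 19 genes of the p53 list with a window, 0 had the paired core and 1, Ccng1, the full consensus. These matches are letters in a reference sequence and not measured binding.

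Cdkn1b (Entrez Gene 12576), which encodes p27, was not called. Its reads were few, 74, 101 and 63 over the controls and 25, 45 and 22 over the cKO libraries. Every cKO library was below every control, yet the libraries of each group spread widely. It averaged 7.68 ± 1.76 CPM against 3.11 ± 1.28 CPM (SD, n = 3 each). The log2 fold change of -1.30 had an SE of 0.647, a 95% interval of -2.84 to 0.24 and an edgeR adjusted p of 0.293. In none of the 15 alternative settings did it pass.

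Cdkn2d (Entrez Gene 12581), which encodes p19 of the INK4 family, was the INK4 gene with the highest level in controls. Its reads numbered 486, 412 and 412 over the controls, against 277, 219 and 255 over the cKO libraries. The cKO libraries were all below the controls. It averaged 42.4 ± 4.63 CPM against 25.3 ± 3.03 CPM (SD, n = 3 each), with a log2 fold change of -0.74 (SE 0.207, 95% interval -1.24 to -0.25, edgeR adjusted p = 0.0838). With cKO replicate 3 left out it fell by 0.76 on the log2 scale (SE 0.195, edgeR adjusted p = 0.0105). In that comparison 28.5% of 13660 tested genes were called.

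Cdkn2b (Entrez Gene 12579), which encodes p15, had the largest rise of the INK4 genes. Its reads numbered 26, 30 and 47 over the controls, against 130, 219 and 215 over the cKO libraries. The lowest cKO count was more than double the highest control count. The level went from 3.33 ± 1.10 to 18.99 ± 4.96 CPM (SD, n = 3 each), a log2 fold change of 2.51 (SE 0.486, 95% interval 1.35 to 3.66, edgeR adjusted p = 0.0319). The call was lost when any single library other than cKO replicate 3 was left out, with edgeR adjusted p between 0.0641 (without cKO replicate 1) and 0.149 (without control replicate 2) and log2 fold changes between 2.34 and 2.80. When cKO replicate 3 was left out its edgeR adjusted p was 0.000395.

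The sequence before the RefSeq start of Cdkn2b is shown as that of the other risen member with an entry. It is on the minus strand of chromosome 4, build GRCm38.p6, with a cyclic AMP response element, TGACGTCA, in capitals; this motif was added to the search after the sequence was seen.
Cdkn2b, chr4:89311033-89311282: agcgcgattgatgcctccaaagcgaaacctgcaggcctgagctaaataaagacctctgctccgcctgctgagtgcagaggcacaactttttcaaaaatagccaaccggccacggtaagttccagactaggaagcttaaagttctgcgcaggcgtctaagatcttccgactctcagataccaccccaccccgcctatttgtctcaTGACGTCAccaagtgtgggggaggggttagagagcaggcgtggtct
The element began 46 bases before the start, and 1.79% of all windows held it on either strand. Of the 6 members 5 had a window; Cdkn1c was the other.

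Cdkn2c (Entrez Gene 12580), which encodes p18, split the cKO libraries. Its reads numbered 40, 44 and 52 over the controls, against 1, 8 and 107 over the cKO libraries. Exact Poisson intervals, which cover counting error only, were 0.0253 to 5.57 counts for cKO replicate 1 and 87.7 to 129 counts for cKO replicate 3. Thus cKO replicates 1 and 2 lay below all controls and cKO replicate 3 above them. With all 6 libraries the log2 fold change was -0.19 (SE 1.403, 95% interval -3.53 to 3.16, edgeR adjusted p = 0.959). Without cKO replicate 3 Cdkn2c fell by 3.24 on the log2 scale (SE 0.835, edgeR adjusted p = 0.0105), and without cKO replicate 1 or 2 its fold change was positive, 0.39 and 0.29, and not called. In the comparison that leaves out cKO replicate 3, 3 of the 6 members rose and 2 fell, against 13.7% and 14.9% of all genes tested.

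**Figure D2:**
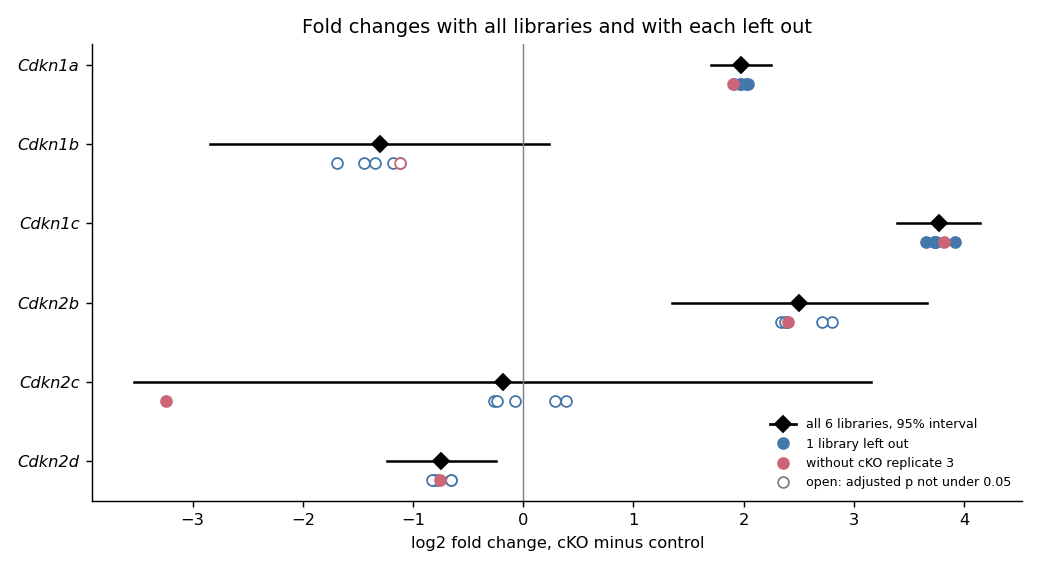
Log2 fold change (horizontal axis, cKO minus control) of each CDK inhibitor gene, with diamonds and 95% intervals for all 6 libraries and circles for the tests with 1 library left out (red for cKO replicate 3, blue for the others), filled where the edgeR adjusted p was under 0.05. Cdkn1a and Cdkn1c kept filled circles throughout, Cdkn2b, Cdkn2c and Cdkn2d had a filled circle only without cKO replicate 3, and Cdkn1b had none.

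Levels of different genes were compared on the deposited FPKM, which is per length. In controls Cdkn1c stood highest at 57.6 to 82.7 FPKM, Cdkn1a followed at 37.8 to 44.9 FPKM and Cdkn2d at 26.5 to 31.8 FPKM, with no overlap between these neighbours. Cdkn1b (2.49 to 3.99 FPKM), Cdkn2b (1.80 to 3.21 FPKM) and Cdkn2c (1.71 to 2.20 FPKM) were lower and overlapped. In cKO Cdkn1c reached 897 to 1013 FPKM and Cdkn1a 149 to 182 FPKM. There Cdkn2d (15.4 to 19.05 FPKM) and Cdkn2b (9.46 to 16.3 FPKM) overlapped, as did Cdkn1b (0.932 to 1.94 FPKM) and Cdkn2c (0.0450 to 4.84 FPKM).

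The summed FPKM of the 6 inhibitors was 159, 145 and 132 in control replicates 1, 2 and 3 and 1165, 1215 and 1118 in cKO replicates 1, 2 and 3, a ratio of means of 8.01. Nearly all of the added level was in 2 genes. Cdkn1c made up 47.0% ± 4.51 of the sum in controls and 82.8% ± 2.29 in cKO (SD, n = 3 each), and Cdkn1a 28.4% ± 3.98 and 14.3% ± 1.79. The Cdkn1a share was smaller in cKO although its level was higher. The ratio of Cdkn1c to Cdkn1a FPKM was 1.43 to 2.19 in controls and 4.93 to 6.62 in cKO. The summed INK4 level was 30.4 to 35.3 FPKM in controls and 28.6 to 38.2 FPKM in cKO, with the higher Cdkn2b beside the lower Cdkn2d. Of 6 such summary values tested by an exact two-sided permutation test over libraries, the INK4 sum had p = 0.9. The other 5 had an exact permutation p = 0.1, the smallest that 3 against 3 libraries can give (0.12 after Benjamini-Hochberg adjustment over the 6), so none could pass 0.05.

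**Figure D3:**
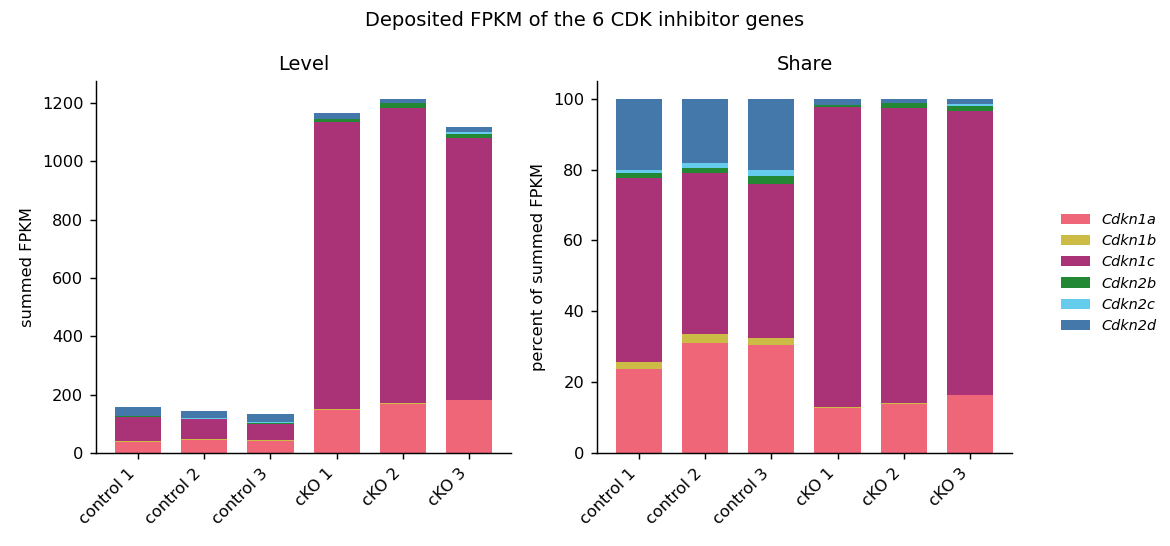
Deposited FPKM of the 6 inhibitor genes in each library (horizontal axis), stacked as levels on the left and as percent of their sum on the right. The sums are 132 to 159 FPKM in controls and 1118 to 1215 FPKM in cKO, and Cdkn1c takes the largest part of every bar.

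The listed kinases and cyclins of the cell cycle moved in both directions. Besides the partners named above, the list holds the B-type cyclins Ccnb1 and Ccnb2, and Cdk7, Ccnh and Mnat1. Of the 16 genes tested, 2 rose, 6 fell and 8 were not called, where 3.52% of all genes rose and 3.59% fell. The median log2 fold change of the list was -0.55. Both risen genes encode D-type cyclins, which start the G1 phase with CDK4 and CDK6. Ccnd2 rose from 514 ± 36.8 to 1464 ± 253 CPM (SD, n = 3 each; edgeR adjusted p = 0.0057), and Ccnd1 from 168 ± 3.91 to 246 ± 10.8 CPM (edgeR adjusted p = 0.0174). The genes that fell encode kinases and cyclins of later phases. They were Cdk1, the mitotic kinase (log2 fold change -1.79, SE 0.191), Ccna2, cyclin A2 (-1.42, SE 0.153), Ccnb1, cyclin B1 (-1.71, SE 0.255), Cdk2, the S phase kinase (-0.80, SE 0.148), Ccne2 and Ccnb2. Cdk4 (-0.57, edgeR adjusted p = 0.066) and Cdk6 (0.75, edgeR adjusted p = 0.0588) were not called. With cKO replicate 3 left out both passed, Cdk4 at -0.75 (edgeR adjusted p = 0.000104) and Cdk6 at 0.71 (edgeR adjusted p = 0.0086). In that comparison 3 of the 16 rose and 7 fell, where 13.7% and 14.9% of all genes did. Ccnd2, Cdk1 and Ccna2 stayed called whichever library was dropped, while of the 6 tests with a library left out Ccnb1 was called in 4, Ccnd1 and Ccne2 in 2 and Cdk2 and Ccnb2 in 1. The highest edgeR adjusted p was 0.0743 for Ccnb1 and 0.131 for Cdk2, both without control replicate 3, and 0.101 for Ccnd1 without control replicate 2.

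Per length, the CIP/KIP level relative to the summed level of Cdk1, Cdk2, Cdk4 and Cdk6 was 0.156 to 0.196 in controls and 2.19 to 3.35 in cKO. In controls these inhibitor transcripts were fewer than those of the kinases, and in every cKO library they were more numerous. The INK4 level relative to Cdk4 and Cdk6 was 0.0631 to 0.0731 in controls and 0.0907 to 0.108 in cKO. These groups did not overlap, although the INK4 sum itself did.

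Pocket proteins and E2F factors carry the signal of CDK4, CDK6 and CDK2 to the genes of S phase. Of 13 tested, 2 fell, 0 rose and 11 were not called (median log2 fold change -0.21), where 3.59% of all genes fell and 3.52% rose. The genes that fell were Tfdp1, the E2F partner DP1 (-0.94, SE 0.128, edgeR adjusted p = 0.0115), and E2f1 (-1.39, SE 0.270, edgeR adjusted p = 0.0327). With 1 library left out they were called in 3 and 2 of 6 tests, and their highest edgeR adjusted p was 0.0679 and 0.15, both without control replicate 3. At an unadjusted p under 0.05 by edgeR, 0 of the 13 rose and 2 fell, and DESeq2 also called 0 up and 2 down. By limma-voom with library weights 2 rose and 6 fell. That setting called 1594 genes up and 1743 down over the whole table. Leaving out cKO replicate 3, 6 of 13 fell and 2 rose (median -0.80), where 14.9% of all genes fell and 13.7% rose, so the count that rose is near that of all genes.

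Among 13 tested genes of the ubiquitin ligases that degrade CIP/KIP proteins, 2 fell, 0 rose and 11 were not called (median log2 fold change -0.22). Of all genes tested 3.59% fell and 3.52% rose. Skp2, the F-box protein that recognises p27, fell from 117 ± 6.06 to 57.3 ± 13.4 CPM, and its cofactor Cks1b from 290 ± 44.4 to 161 ± 7.77 CPM (SD, n = 3 each; edgeR adjusted p = 0.0301 and 0.0156). Every cKO library was below every control for both. Each call was kept in only 1 of the 6 tests with a library left out, the one without cKO replicate 3, and the highest edgeR adjusted p was 0.137 for Skp2 without control replicate 3 and 0.0739 for Cks1b without cKO replicate 2. By edgeR 1 gene rose and 3 fell at an unadjusted p under 0.05. DESeq2 called 0 up and 3 down, limma-voom 0 and 2, and limma-voom with library weights 2 and 3. Over the whole table DESeq2 called 1111 genes up and 1061 down, limma-voom 389 and 569, and library weights 1594 and 1743. In the edgeR test without cKO replicate 3, 4 of 13 fell and 1 rose, where 14.9% and 13.7% of all genes did.

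The list of p53 and its known targets, with the inhibitors left out, was mostly higher in cKO. Of 25 tested, 10 rose, 1 fell and 14 were not called, where 3.52% of all genes rose and 3.59% fell. The median log2 fold change was 0.85. Ccng1, cyclin G1, went from 114 ± 7.06 to 386 ± 65.2 CPM, and Phlda3, an inhibitor of AKT signalling, from 51.7 ± 10.1 to 166 ± 9.50 CPM (SD, n = 3 each; edgeR adjusted p = 0.00464 and 0.00603). Both stayed called whichever library was dropped. Plk2, a polo-like kinase, rose by 3.08 on the log2 scale (SE 0.359), Gadd45a, a DNA damage response gene, by 1.47 (SE 0.183), and the apoptosis genes Bbc3 and Bax by 1.58 (SE 0.217) and 0.79 (SE 0.119).

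With a library left out, Plk2 was called in 5 of 6 tests, Gadd45a in 4, Bbc3 in 3 and Bax in 2. The highest edgeR adjusted p was 0.0517 for Plk2 without control replicate 2, and 0.0531 for Gadd45a, 0.0693 for Bbc3 and 0.0879 for Bax without control replicate 3. The rises of Eda2r and Perp were called in 2 of these 6 tests, and those of Mdm2 and Trp53inp1 and the fall of Trp53i11 in 1. Trp53 itself, with 3576, 3549 and 3764 reads over the controls against 3080, 3504 and 6023 over the cKO libraries, was not called (log2 fold change 0.27, SE 0.239). Only cKO replicate 3 lay above the control range. Without that library 13 of the 25 rose and 2 fell, where 13.7% and 14.9% of all genes did.

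TGF-beta signalling genes, which lie upstream of Cdkn2b, were not called with all 6 libraries. Of 10 tested, 0 rose and 0 fell by edgeR, where 3.52% and 3.59% of all genes did. The median log2 fold change was 0.10. At an unadjusted edgeR p under 0.05, 2 were positive and 0 negative, and DESeq2 called 2 up. Over the whole table DESeq2 called 1111 genes up and 1061 down. Unadjusted edgeR p-values of 0.0288 and 0.0624 ranked 2361 and 3316 of the 13047 genes tested, so an unadjusted p under 0.05 was common. The 2 with the smallest p were Zbtb17, whose product MIZ1 binds the Cdkn2b promoter with MYC (0.64, SE 0.166, edgeR adjusted p = 0.0703), and Myc itself (1.26, SE 0.393, edgeR adjusted p = 0.113). With cKO replicate 3 left out, Zbtb17 rose (edgeR adjusted p = 0.018) and Smad3, a TGF-beta signal transducer, fell (edgeR adjusted p = 0.0377), so that 1 of the 10 rose and 1 fell. Of 13 other regulators of the inhibitors, 0 rose and 0 fell by edgeR, with 4 positive and 1 negative at an unadjusted p under 0.05. DESeq2 called 3 of them up and 0 down, and the same limits hold for these counts. The smallest p-values were those of Id2 (0.60, SE 0.157, edgeR adjusted p = 0.0702) and Hes1 (0.78, SE 0.230, edgeR adjusted p = 0.098). With cKO replicate 3 left out 2 of these 13 rose, Id2 among them (edgeR adjusted p = 0.0117), and 1 fell. For both lists, 13.7% of all genes rose and 14.9% fell in the same comparison.

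**Figure D4:**
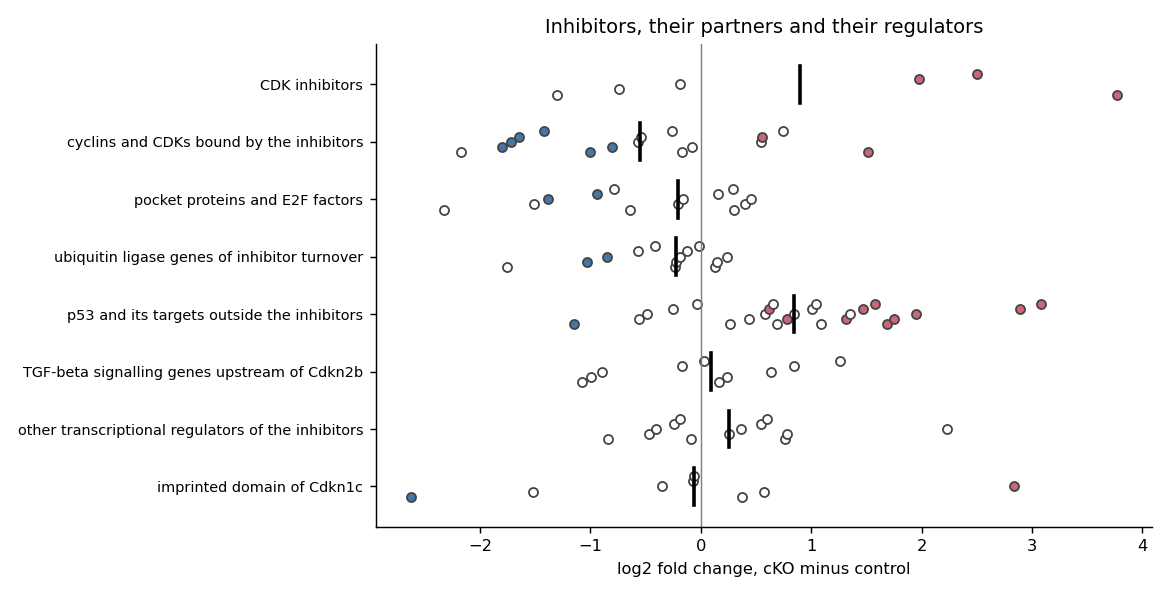
Log2 fold change (horizontal axis, cKO minus control) of each tested gene in the inhibitor set and in 7 lists of partners and regulators (rows), with bars for the medians and filled circles for an edgeR adjusted p under 0.05, red up and blue down. The p53 list has 10 filled red circles of 25, and the list of cyclins and kinases has 6 blue and 2 red of 16.

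Cdkn1c lies in a cluster of imprinted genes, and its neighbours did not all move with it. Of 8 tested genes of that cluster and its borders, 1 rose, 1 fell and 6 were not called (median log2 fold change -0.06). Of all genes tested 3.52% rose and 3.59% fell. Phlda2 rose from 116, 139 and 79 reads over the controls to 697, 721 and 877 over the cKO libraries. Its groups were far apart (log2 fold change 2.84, SE 0.258, edgeR adjusted p = 0.00567), and the call was kept without each library in turn. Cd81, a tetraspanin gene, had 2426, 2143 and 2423 reads over the controls against 197, 246 and 654 over the cKO libraries (-2.62, SE 0.445, edgeR adjusted p = 0.021). Its call was kept in only 1 of the 6 tests with a library left out, the one without cKO replicate 3, and the edgeR adjusted p reached 0.0948 without control replicate 3. In the test without cKO replicate 3, 2 of the 8 rose and 1 fell, where 13.7% and 14.9% of all genes did. Nap1l4, at -0.06 (SE 0.0836), and Tssc4, at -0.07 (SE 0.149), were not called. With 1 library left out, log2 fold changes were -0.55 to -0.16 for Kcnq1, -2.74 to -0.95 for Ascl2 and 0.31 to 0.75 for Igf2. These were called in 0 of 6 tests. Slc22a18 (-0.04 to 0.94) was called in 1 of 6, the one without cKO replicate 3. Nap1l4, Tssc4, Kcnq1, Ascl2, Igf2 and Slc22a18 were named after their values were seen.

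The genes most like each inhibitor over the 6 libraries were found by Pearson's r of log2 CPM among 10608 candidate genes (10609 for Cdkn2c). These are descriptions only, since any gene that differs between the 2 groups will score high. Cdkn1a was most like the metallothionein gene Mt1 (r = 0.998) and Uchl1, a ubiquitin hydrolase (0.998), and Cdkn1c like Cavin2, a caveola protein (0.998), and Nubp2 (0.998). Cdkn2b was most like B2m, a subunit of class I histocompatibility molecules (0.997), and Fhit (0.995). Cdkn2d was most like Cdc25c, a phosphatase that activates CDK1 (0.998), and Nop58 (0.997). Cdkn1b was most like Cux2 (0.988) and Rhbdd3 (0.985), and Cdkn2c like Hnrnpd (0.996) and Dnase1l2 (0.995). Among the members, Cdkn1a and Cdkn1c had r = 0.986 and Cdkn2b and Cdkn2d r = -0.971, with the same limit.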

How the data were processed

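The authors deposited raw read counts per gene and FPKM values for each of the 6 libraries. The submitters' processing notes name the tools HISAT2, HTSeq, Cufflinks and DESeq with no version or role, and GRCm39 as the build. The deposited FPKM are the same counts rescaled for gene length and library, and so no independent measurement. No source used here gives a strand setting for the counting, and GENCODE M21 (GRCm38) places an antisense or unconfirmed gene over Cdkn1a and over Cdkn1c, whose reads cannot be told apart from theirs.

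Counts were tested with edgeR 4.0.16 in R 4.3.3 (filterByExpr, TMM factors, robust quasi-likelihood F-test, group as the only term), with Benjamini-Hochberg adjustment over 13047 genes and a threshold of 0.05. The SE is the log2 fold change divided by the square root of F, and CPM are scaled by TMM factors. Alternatives used DESeq2 1.42.0 and limma 3.58.1, other filters and scales, and each library left out. In simulated counts over 12395 genes with 6 libraries, the test called 25.3% of 2-fold and 49.0% of 4-fold changes, and 5.33% of its calls were false. With 5 libraries (no cKO replicate 3) and 12666 genes, the figures were 59.6%, 85.4% and 7.84%. The simulation changed far fewer genes than were called in the data. It also gave all libraries of a gene the same dispersion, although cKO replicate 3 stood apart. These figures are therefore not the power or the false share for the data themselves.

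The inhibitor genes and all lists were chosen with earlier results of these data known. Besides the members and Ash2l, the genes named were up to 6 called genes of each list by p, or the 2 with the smallest p where fewer than 2 were called, and the 2 genes most like each member (mean log2 CPM of at least 2, no predicted models). Other genes named were chosen after their values were seen. Tp53i11 was read as Trp53i11, its current symbol, and Kcnq1ot1, H19 and Umod were not analysed here. All pairs of libraries within a group differed beyond sampling noise, with a chi-square of 9.90 to 71.7 for each degree of freedom. Replicate numbers in the labels do not name a shared animal or day. Some single marker genes are not reported here.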

Additional observations from a re-analysis of the deposited data

How the results depend on the processing

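Cdkn1a and Cdkn1c kept direction and call in all 15 alternatives each, and Cdkn1b stayed uncalled in its 15. With DESeq2 1111 genes rose and 1061 fell over the table, with library weights 1594 and 1743, and on log2(FPKM + 1) 696 and 709, against 459 and 469 in edgeR. The number of members that fell was 1 with DESeq2, on log2(FPKM + 1) and on log2(FPKM + 0.1), each time Cdkn2d (log2 fold changes -0.74, -0.67 and -0.70). It was 2 with library weights, Cdkn2d (-0.75) and Cdkn2c (-3.39). Cdkn2b was not called with limma-voom (2.51, adjusted p = 0.0653). With 1 library left out, 62 to 1865 genes rose and 59 to 2032 fell, 0 to 2 members fell, and log2 fold changes were 2.34 to 2.80 for Cdkn2b, -0.83 to -0.66 for Cdkn2d and -3.24 to 0.39 for Cdkn2c, whose sign turned without cKO replicate 1 (0.39) or 2 (0.29). Cdkn2c had no value where 10 counts were required in every library. The cause of these changes was not tested. With the replicate number as a block, 12 genes rose and 11 fell; Cdkn1c and Cdkn1a were called (adjusted p = 0.0274 and 0.0491), and Cdkn2b was not (2.52, adjusted p = 0.124). Same-numbered libraries did not deviate together (r = -0.022, 0.025 and -0.0015 for numbers 1, 2 and 3), and not every library correlated best with its own number, so the numbers were not taken as pairs. In TPM the summed inhibitor level was 7.88 times as high in cKO. Low counts limit Cdkn1b, Cdkn2b and Cdkn2c.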
